A study of Mus musculus with 11 samples.

Results

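A set of 10 genes of extracellular adenosine were followed through mouse cell reprogramming: *Nt5e*, which encodes CD73, *Entpd1*, *Enpp1*, *Enpp3*, *Adora1*, *Adora2a*, *Adora2b*, *Ada*, *Slc29a1* and *Dpp4*. The members were named by their roles, with earlier results of these data known. Each was read from the probe set that carries its symbol alone and has the highest mean over the 11 arrays. Such a probe set was found for 6 of the 10, out of 22180 genes that could be read this way. *Enpp1*, *Adora1*, *Adora2a* and *Adora2b* were not analysed here. The values are linear intensities with a floor of 100, at which a value is only an upper bound.

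The cells were mouse embryonic fibroblasts with rtTA, an activator that needs doxycycline, at 1 copy of the Rosa locus (Rosa-rtTA+/-). They received 4 viruses, tetO-Sox2, tetO-Myc, tetO-Klf4 and tetO-Oct4, whose promoter rtTA drives. Doxycycline was added 1 day after infection, which was day 0, and on day 6 and day 9 cells were double sorted on surface CD73 or CD49d. All 8 arrays of these 2 days therefore share the rtTA allele, the 4 viruses and doxycycline. They hold CD49d+, CD73+, CD73- and unsorted cells, and the labels call the CD49d+ and CD73+ cells poised and the CD73- cells non-poised. The controls were Rosa-rtTA+/- fibroblasts (MEF, passage 4), SC4, which is a single partially reprogrammed line (passage 10), and V6.5 embryonic stem cells (ESC, passage 11), and no animal age is used here. Each of the 11 groups has 1 array and no replicate. The fit over the 8 reprogramming arrays judges a population difference by how well it repeats on the 2 days, and the labels do not say whether these are separate cultures. A p-value thus measures agreement between days, which may be technical.

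ATP released from cells is cut outside the cell to ADP and AMP by ectoenzymes of the ENTPD and ENPP families. CD73 removes the last phosphate of AMP and so makes adenosine, which acts on G protein-coupled receptors that raise or lower cAMP. Equilibrative transporters such as the *Slc29a1* product carry adenosine across the membrane, and adenosine deaminase, the *Ada* product, turns it into inosine. CD26, the *Dpp4* product, binds the human enzyme at the cell surface, and such binding is not assumed here for mouse cells. CD73 is also a widely used surface marker of mesenchymal cells, and here it is a marker of the sort.

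The 2 members that differed most among the sorted cells, *Nt5e* and *Enpp3*, have unlike promoters, which are shown because the 2 genes part ways in the stem cell controls described further on. The sequences are from RefSeq, build GRCm38.p6, on the strand of the gene, 250 bases before to 50 after its start. Capitals mark matches to any of 7 motifs searched on both strands: AP-1 TGANTCA, CRE TGACGTCA, GC box GGGCGG, KLF box CACCC, octamer ATGCAAAT, E box CACGTG and TATA box TATAAA. Adjoining matches run together.
Nt5e chr9:88327359-88327658, plus strand: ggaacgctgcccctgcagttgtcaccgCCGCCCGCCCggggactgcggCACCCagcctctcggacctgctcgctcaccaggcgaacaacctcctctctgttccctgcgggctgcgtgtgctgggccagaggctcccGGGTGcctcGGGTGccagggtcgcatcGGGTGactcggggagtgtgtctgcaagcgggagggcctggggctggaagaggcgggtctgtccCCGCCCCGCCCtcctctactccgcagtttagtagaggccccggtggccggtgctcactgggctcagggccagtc
Enpp3 chr10:24836146-24836445, minus strand: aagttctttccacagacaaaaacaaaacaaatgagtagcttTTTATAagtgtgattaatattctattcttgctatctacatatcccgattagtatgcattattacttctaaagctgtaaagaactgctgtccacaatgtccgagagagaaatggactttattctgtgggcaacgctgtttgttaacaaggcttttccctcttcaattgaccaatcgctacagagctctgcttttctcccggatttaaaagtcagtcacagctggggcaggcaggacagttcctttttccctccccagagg

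The *Nt5e* window was 71.0% G and C with 23 CpG, and 91.8% of the 32851 promoters of the same length had a lower G and C share. It held 4 GC boxes and 4 KLF boxes, motifs found in 35.7% and 57.5% of all promoters. The *Enpp3* window was 40.7% G and C with 5 CpG, and 11.4% of promoters were lower. Its 1 match was to the TATA box letters on the opposite strand (TTTATA), near the upstream end of the window and far from the start. These letters were found, on either strand, in 13.6% of all promoters. AP-1, CRE, octamer and E box letters, present in 7.8%, 1.8%, 1.7% and 7.2% of promoters, were in neither window. These matches describe the letters only.

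*Nt5e*, the gene of the sort marker, checks the labels. Its intensity was 3438 in CD73+ cells of day 6 and 3658 in CD73+ cells of day 9. In CD73- cells it was 332 on day 6 and 292 on day 9. It was 2828 and 2704 in CD49d+ cells, which the labels give as sorted on CD49d, and 1207 and 1669 in unsorted cells of the 2 days. The poised and CD73- arrays did not overlap, and unsorted cells lay between them on both days. In limma's fit with Benjamini-Hochberg adjustment over the 13313 genes tested, *Nt5e* was 10.1-fold higher in poised than in CD73- cells (log2 difference 3.33 ± 0.14, SE; adjusted p = 0.00243). Both the CD73+ and the CD73- gates selected on its product, so this difference is a check and not a finding. The CD49d+ arrays stood 8.52-fold and 9.25-fold above CD73- cells on day 6 and day 9, which the CD73- gate in part fixes, and 2.34-fold and 1.62-fold above unsorted cells. The labels do not say whether double sorted means a second round or a second marker, so whether CD49d+ cells were also gated on CD73 is not known here. In sorted bulk RNA, fewer cells that express a gene and less RNA per cell cannot be told apart.

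**Figure D1:**
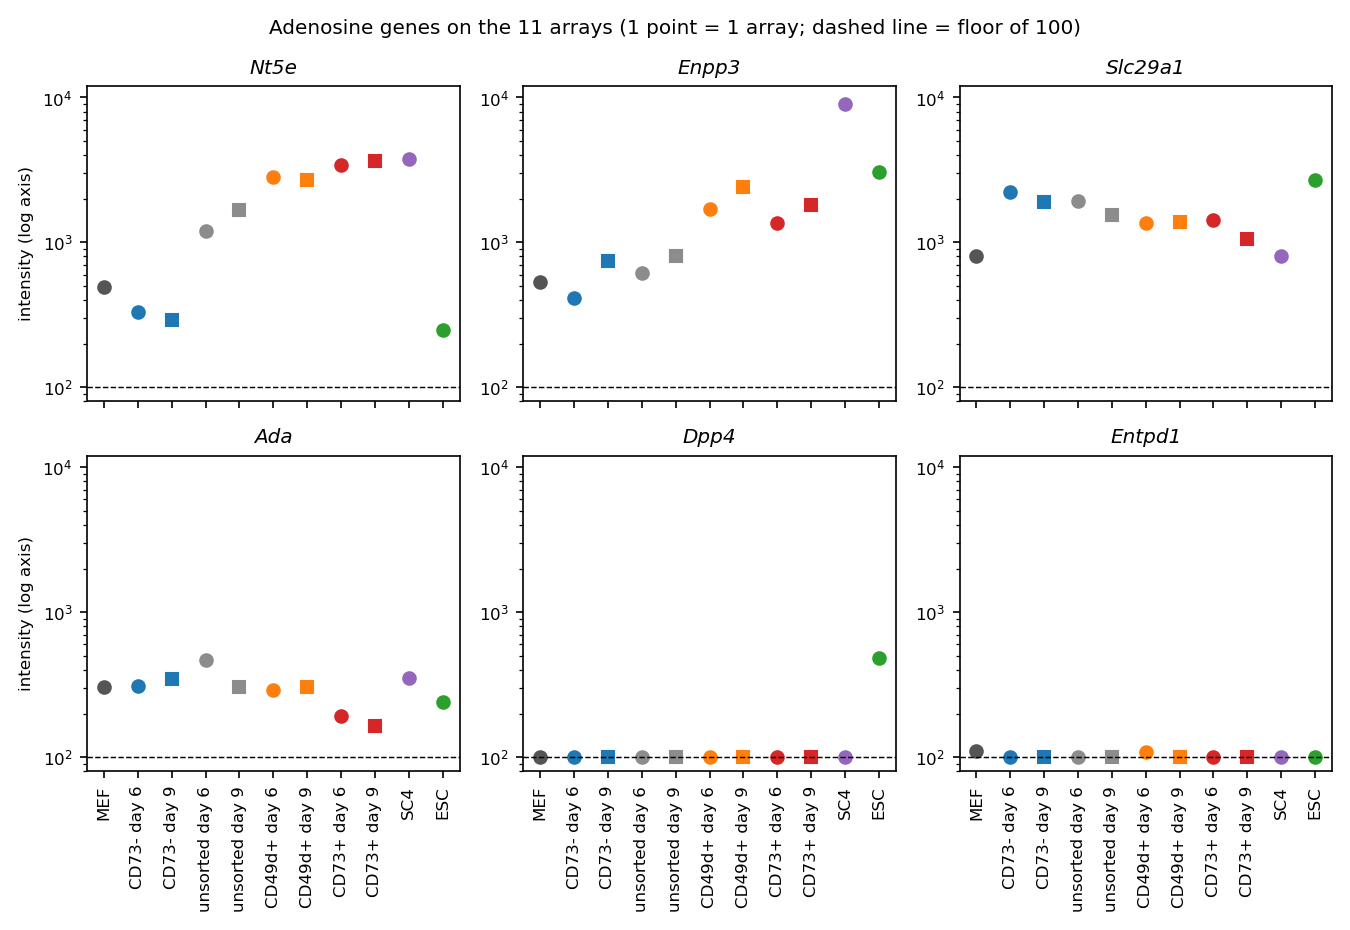
Linear intensity (log axis) of the 6 measured members on each of the 11 arrays, 1 point per array, with circles for day 6 and the controls, squares for day 9, and the floor of 100 dashed. *Nt5e* lies between 2704 and 3658 in the 4 poised arrays and between 292 and 332 in CD73- cells, while *Dpp4* leaves the floor in ESC.

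*Enpp3*, which encodes an ectoenzyme that cuts nucleotides such as ATP outside the cell, was higher in the poised cells although no gate used it. It read 1688 in CD49d+ and 1354 in CD73+ cells on day 6, against 414 in CD73- and 615 in unsorted cells. On day 9 it read 2420 and 1815 in the poised populations, 748 in CD73- and 812 in unsorted cells. The lowest poised array stood above the highest CD73- array. Unsorted cells were close to CD73- cells on day 9, at 1.09 times their level. *Enpp3* was 3.20-fold higher in poised than in CD73- cells (log2 difference 1.68 ± 0.11, SE; 95% interval 1.40 to 1.95; limma, adjusted p = 0.00473). In CD73+ cells alone against CD73- cells it was 2.82-fold higher (1.49 ± 0.13, SE; adjusted p = 0.0119).

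*Entpd1*, which encodes CD39, the ectoenzyme usually placed just before CD73 in this pathway, was near the floor throughout. It read 108 in CD49d+ cells of day 6 and 109.8 in MEF, and it was at the floor of 100 on the other 9 arrays. No level of it could be compared between the populations.

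*Slc29a1*, the equilibrative transporter of adenosine, ran the other way. It read 2235 and 1895 in CD73- cells on day 6 and day 9, and 1921 and 1557 in unsorted cells. CD49d+ cells read 1371 and 1385, and CD73+ cells 1436 and 1060. Every poised array was below both CD73- arrays. It was 1.58-fold lower in poised cells (log2 difference -0.66 ± 0.10, SE; limma, adjusted p = 0.0224) and 1.67-fold lower in CD73+ than in CD73- cells (-0.74 ± 0.12, SE; adjusted p = 0.0319). Its second probe set was at the floor on all 11 arrays, so these values rest on 1 probe set.

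*Ada*, the enzyme that removes adenosine, was low everywhere, between 164 and 469. CD73+ cells had the 2 lowest of all 11 values, 193 on day 6 and 164 on day 9. CD73- cells read 308 and 348, CD49d+ cells 289 and 303, and unsorted cells 469 and 303. The low values were those of CD73+ cells, with CD49d+ cells 1.07-fold and 1.15-fold under CD73- cells on the 2 days. The poised and CD73- ranges thus did not overlap, by the narrow margin of 303 in CD49d+ cells of day 9 against 308 in CD73- cells of day 6. Such a split is not particular to the members that passed. The share of all genes that split this way was not counted, so a split alone sets no gene apart here. *Ada* did not pass the test in CD73+ against CD73- cells (log2 difference -0.88 ± 0.20, SE; 95% interval -1.39 to -0.36; limma, adjusted p = 0.0655). It did not pass in poised against CD73- cells either (-0.51 ± 0.18, SE; adjusted p = 0.125). With arrays centred on their medians it passed in both, with adjusted p of 0.0183 and 0.0434. *Dpp4*, the gene of CD26, stayed at the floor on each of the 8 reprogramming arrays and was not tested.

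Of the 5 members tested, 2 were higher and 1 lower in poised than in CD73- cells, where 12.0% of all genes tested passed; the 2 include *Nt5e*, whose call the gates fix, and without it 2 of 4 passed. The same 3 passed in CD73+ against CD73- cells, where 8.0% of genes passed; these 2 comparisons share the CD73+ and CD73- arrays. The members were chosen with earlier results of these data known, so these shares are description only. Over all genes, 953 were higher and 646 lower in poised cells, and 1112 and 1200 with arrays centred on their medians. Leaving out the unsorted day 6 array ended the calls of *Nt5e* and *Enpp3* in poised against CD73- cells (adjusted p = 0.0524 for both), although that array stands on neither side. *Slc29a1* lost its call in this contrast without either CD73+ array, either CD73- array or either unsorted array (adjusted p from 0.0664 to 0.146) and without the day term (0.0553). In CD73+ against CD73- cells no member passed without the CD73+ or CD73- array of either day or without the unsorted day 6 array, and without the unsorted day 9 array *Nt5e* alone passed.

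Between the 2 poised populations no member passed limma's test, where 0.03% of all genes tested did (4 genes, and 3212 at an unadjusted p under 0.05). An unadjusted p under 0.05 was found for 2 of the 5 members, *Ada* and *Enpp3*. *Ada* was 1.66-fold higher in CD49d+ than in CD73+ cells (log2 difference 0.73 ± 0.20, SE; 95% interval 0.21 to 1.25; adjusted p = 0.117) and *Enpp3* was 1.29-fold higher (0.37 ± 0.13, SE; interval 0.05 to 0.69; adjusted p = 0.166). *Nt5e* was 1.28-fold lower, with an interval from -0.77 to 0.06. *Slc29a1* had an interval from -0.14 to 0.46. These intervals leave room for differences in *Ada* of more than a doubling. Fibroblast markers differed beside them: of 12, 8 had an unadjusted p under 0.05 and 0 passed, with a median log2 difference of 0.73 against 0.01 for all genes, and *Postn*, a matrix protein gene, was 5.40-fold higher in CD49d+ than in CD73+ cells (limma, adjusted p = 0.0621). The part of fibroblasts in the member differences was not tested.

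From day 6 to day 9 no member passed and 0.0% of genes did (1545 genes at an unadjusted p under 0.05). *Enpp3* was higher on day 9 in 4 of 4 populations, by 1.43-fold in CD49d+, 1.34-fold in CD73+, 1.81-fold in CD73- and 1.32-fold in unsorted cells. The fitted day difference was 0.55 ± 0.09 (log2, SE; limma, adjusted p = 0.170), and it passed with arrays centred on their medians (adjusted p = 0.0321), where 94 genes passed. *Slc29a1* was -0.24 ± 0.08 (adjusted p = 0.377), and the intervals of *Nt5e* (-0.22 to 0.37) and *Ada* (-0.52 to 0.21) included 0.

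**Figure D2:**
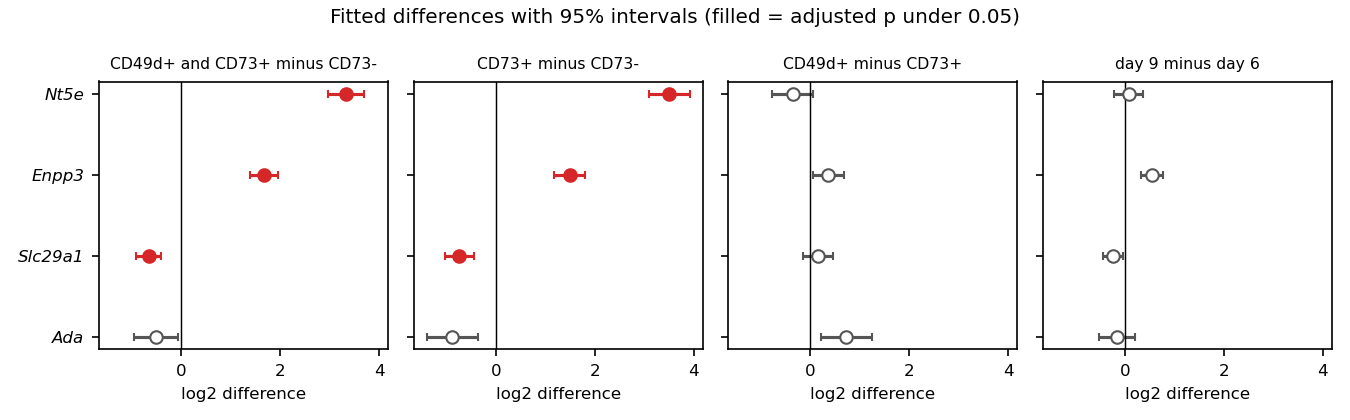
Log2 difference (x axis) of 4 members in the 4 contrasts fitted, with 95% intervals; filled points have an adjusted p under 0.05. *Nt5e* at 3.33 and *Enpp3* at 1.68 lie right of 0 in the first panel and *Slc29a1* at -0.66 lies left of it; *Entpd1*, near the floor, is not drawn.

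The controls set the scale of these levels. With 1 array per group these are folds without a test, and the count of genes at least 2-fold from MEF is the background. *Nt5e* read 495 in MEF, 3738 in SC4 and 249.5 in ESC. The order from high to low was SC4, CD73+, CD49d+, unsorted, MEF, CD73- and ESC. SC4 stood 1.02-fold and 1.09-fold above the CD73+ arrays of day 9 and day 6, which themselves differed by 1.06-fold, so these neighbours are not set apart. The poised arrays were 5.46-fold to 7.39-fold above MEF. CD73- cells were 1.49-fold and 1.69-fold below MEF, and ESC were 1.99-fold below, a value that passed the 2-fold limit with arrays centred or quantile normalized.

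*Enpp3* had its highest value in SC4, 8967, which was 16.7-fold above MEF at 536, and it was 3045 in ESC, 5.68-fold above MEF. ESC were thus high for *Enpp3* and lowest of all groups for *Nt5e*. The poised arrays were 2.53-fold to 4.51-fold above MEF for *Enpp3*, all below SC4 and ESC. CD73- cells of day 6 and day 9 lay on either side of MEF.

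*Slc29a1* read 804 in MEF and 812 in SC4, the 2 lowest groups, and 2694 in ESC, 3.35-fold above MEF. CD73- cells were 2.78-fold and 2.36-fold above MEF, and the poised arrays 1.32-fold to 1.79-fold. *Ada* read 305 in MEF, 351 in SC4 and 239 in ESC, and it was within 2-fold of MEF on every array. *Dpp4* read 483 in ESC and 100 on the other 10 arrays, so it was at least 4.83-fold higher in ESC than in any other group.

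All 4 poised arrays were at least 2-fold above MEF for *Nt5e* and *Enpp3*, as were 14.1% of the 14301 genes in either direction. Both CD73- arrays were so for *Slc29a1* (18.1% of genes), SC4 for *Nt5e* and *Enpp3* (22.4%) and ESC for *Enpp3*, *Slc29a1* and *Dpp4* (23.9%). These shares pool genes above and below MEF, while the members named were all above it. The counts of genes higher, given next, are the like background. Over all genes the poised arrays had 987 higher and 1035 lower, and 730 and 1305 with arrays centred on their medians. For CD73- cells these were 1319 and 1273, and 994 and 1557. Before centring, SC4 had 1567 higher and 1642 lower, and ESC 1715 and 1708. Centring lowered the arrays against MEF by 0.07 to 0.20 on the log2 scale, and the members' directions given here as at least 2-fold did not turn with it.

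Other genes of the purine pathway were read from lists by role. These lists, and those of cAMP genes and cell markers below, were drawn up with earlier results of these data known. Their shares are set beside that of all genes as description only. In the release and breakdown of ATP, 18 of 31 genes could be tested, 3 were higher and 1 lower in poised than in CD73- cells (22.2% of the list, against 12.0% of all genes tested), and the median log2 difference was -0.08 against -0.01 for all genes tested. *Acpp*, an acid phosphatase whose membrane form can also turn AMP into adenosine, had the widest called difference. On day 6 and day 9 CD49d+ cells read 517 and 779, CD73+ cells 342 and 787, CD73- cells 127 and 193, and unsorted cells 117 and 283. It was 135 in MEF, 199 in SC4 and 153 in ESC. The poised arrays were above all 7 others. *Acpp* was 3.67-fold higher in poised than in CD73- cells (limma, adjusted p = 0.00807). *Enpp5*, a relative of *Enpp3*, was 1.46-fold higher (adjusted p = 0.0337) and *Lrrc8a*, a subunit of the volume-regulated anion channel, 1.32-fold higher (adjusted p = 0.0230). For *Enpp5* the poised and CD73- ranges overlapped. Unsorted cells read 407 on day 6 and 499 on day 9, above both poised arrays of each day, and MEF 1940. For *Lrrc8a* unsorted cells read 803 and 964, between the CD73+ and CD49d+ arrays of each day. *Entpd6*, a relative of *Entpd1*, was 1.38-fold lower (adjusted p = 0.0201).

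*Alpl*, tissue-nonspecific alkaline phosphatase and another enzyme that can act on AMP, did not pass (log2 difference 1.51 ± 0.40, SE; limma, adjusted p = 0.0729). It read 823 and 778 in the poised populations of day 6 against 152 in CD73- cells, and 1075 and 1354 on day 9 against 778. The poised and CD73- ranges met at 778. It was at the floor in MEF and highest in ESC, at 1854. *Slc17a9*, the vesicular ATP carrier, was 1.51-fold higher in poised cells and did not pass (adjusted p = 0.166).

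Among receptors and transporters, 11 of 22 genes could be tested, 1 was higher and 4 lower (45.5%, against the same 12.0%), and the median was 0.02. *P2rx7*, an ATP-gated cation channel, read 541 and 539 in CD49d+ cells, 481 and 804 in CD73+ cells, 165 and 183 in CD73- cells, and 159 and 215 in unsorted cells on the 2 days. It was 3.34-fold higher in poised cells (limma, adjusted p = 0.00786), and at 1025 it was highest in SC4. The 4 that were lower were *Slc29a2*, the second equilibrative nucleoside transporter, by 1.81-fold (adjusted p = 0.0124), and the nucleotide receptors *P2ry2* by 1.78-fold (0.0109), *P2ry1* by 1.40-fold (0.0474) and *P2ry6* by 1.33-fold (0.0348). *Slc29a2* had values of 1174 and 1153 with CD73-, 479 and 607 with CD49d+, and 766 and 769 with CD73+ cells, so its poised and CD73- ranges did not overlap, as with *Slc29a1*. Unsorted cells read 737 and 698 for *Slc29a2*, between the CD49d+ and CD73+ arrays of each day. For *Slc29a1*, by contrast, unsorted cells lay above all poised arrays. *Slc29a3*, an intracellular relative, was 1.49-fold higher and did not pass (adjusted p = 0.0529). *Adora3*, the adenosine receptor gene read here, was at the floor on all 11 arrays. *P2ry1* and *P2ry6* lay within 100 to 177 in the 8 arrays, close to the floor, and *P2ry6* was at it in CD73+ cells of day 9, so its fold may be understated.

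In adenosine and AMP metabolism inside cells, 20 of 27 genes could be tested, 1 was higher and 2 lower (15.0%, against 12.0%), and the median was -0.06. The 1 higher gene, *Gda*, is guanine deaminase, a purine enzyme that does not itself act on adenosine or AMP. *Gda* had values of 687 and 507 with CD49d+, 805 and 1065 with CD73+, and 101 and 219 with CD73- cells on day 6 and day 9. The CD73- value of day 6 lies close to the floor of 100. It was 4.96-fold higher in poised cells (limma, adjusted p = 0.0159), and it was at the floor in SC4 and ESC. *Ak4*, a mitochondrial adenylate kinase, was 1.75-fold lower (adjusted p = 0.0249) and *Aprt*, which salvages adenine to AMP, 1.42-fold lower (adjusted p = 0.0186). *Adss*, which starts the path from IMP to AMP, was 1.22-fold lower and did not pass (adjusted p = 0.0919).

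**Figure D3:**
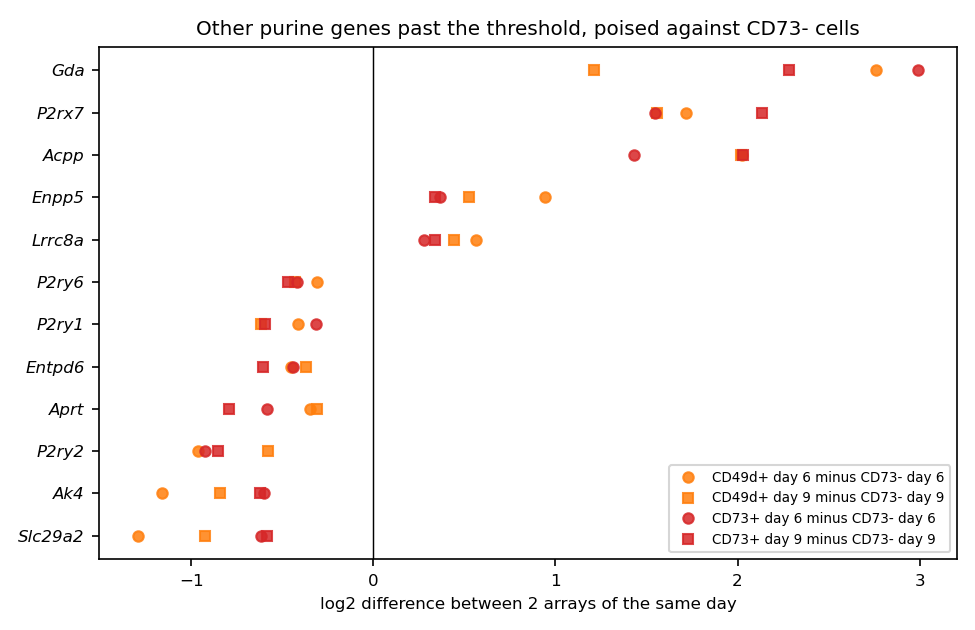
Log2 difference (x axis) of each poised array from the CD73- array of its day for the 12 other purine genes that passed in poised against CD73- cells; orange is CD49d+, red CD73+, circles day 6 and squares day 9. *Gda* runs from 1.21 to 2.99 and *P2rx7* from 1.54 to 2.13, and the 4 points of each gene lie on 1 side of 0. That is in good part fixed, since the genes were drawn for passing on these same arrays. The 2 points of a day also share 1 CD73- array.

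Adenosine receptors act through cAMP, so genes of that signal were read too. Of 42, 33 could be tested, 1 was higher and 5 lower in poised cells (18.2%, against 12.0% of all genes), and the median was -0.03. *Nr4a1*, a nuclear receptor gene that cAMP among other signals induces, had values of 1648 and 1732 with CD49d+, 1415 and 1627 with CD73+, and 756 and 858 with CD73- cells on day 6 and day 9. It was 1.99-fold higher in poised cells (limma, adjusted p = 0.00476), and MEF at 1887 were higher still. *Prkar2b*, a regulatory subunit of protein kinase A, was 3.09-fold lower (adjusted p = 0.00796). The others lower were the adenylyl cyclase *Adcy2* by 2.23-fold (0.0197), the phosphodiesterases *Pde3a* by 2.03-fold (0.0118) and *Pde10a* by 1.29-fold (0.0474), and the protein kinase A inhibitor *Pkia* by 1.74-fold (0.0217). The genes lowered include ones that make cAMP, that break it down and that restrain the kinase.

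In CD73+ against CD73- cells alone, 4 of the other purine genes were higher and 6 lower, and 1 of the cAMP genes was higher and 3 lower (20.4% of 49 and 12.1% of 33, against 8.0% of all genes). *Ak1*, a cytosolic adenylate kinase, was 1.28-fold lower (limma, adjusted p = 0.0485) and *Nt5c3*, a cytosolic nucleotidase, 1.31-fold higher (adjusted p = 0.0395), and both passed in this contrast and not in that of all poised cells. Between the 2 poised populations and between the days, limma called 0 of the 82 genes tested of these lists. At an unadjusted p under 0.05 there were 18 (22.0%, against 24.1% of all genes) and 13 (15.9%, against 11.6%). The 18 calls of the lists in poised against CD73- cells kept their direction in every alternative, but leaving out single arrays took them away. Of the 12 purine and 6 cAMP calls, 0 and 0 were left without CD73- day 6, without CD73- day 9 or without unsorted day 6. There were 3 and 2 left without CD73+ day 6, 1 and 3 without CD73+ day 9, 6 and 4 without unsorted day 9, 8 and 4 without CD49d+ day 6 and 10 and 5 without CD49d+ day 9. The 10 and 4 calls in CD73+ against CD73- cells fell to 0 and 0 without any one CD73+, CD73- or unsorted array, and to 7 and 3 without either CD49d+ array.

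CD73 and its neighbours are also genes of other cell types, so markers of these were read on the same arrays. Of 11 macrophage and blood cell markers, 6 were at the floor on all 11 arrays, and of the 8 reprogramming arrays *Cd68* was above it on 8, *Laptm5* on 6 and *Cd14* on 2. Their summed intensity was 1672 to 1794 in poised and 1554 to 1686 in CD73- cells. *Laptm5* was 2.25-fold higher in poised cells as fitted (limma, adjusted p = 0.00856), a fold that may be understated because the CD73- array of day 6 was at the floor. It was the 1 call among the 3 markers of this list that could be tested (33.3%, against 12.0% of all genes tested). Of 10 endothelial markers, 3 to 5 were above the floor in poised and 3 in CD73- cells, with sums of 2125 to 2677 and 1464 to 1709. *Tek* was 2.47-fold and *Cldn5*, at the floor in CD73- cells of day 9, 1.43-fold higher in poised cells as fitted (adjusted p = 0.00786 and 0.0138). *Egfl7* was 1.22-fold lower (adjusted p = 0.0428), with CD49d+ cells at a log2 difference of -0.07 and 0.06 from CD73- cells and CD73+ cells at -0.55 and -0.60, while *Pecam1* was at the floor in 3 of the 4 poised arrays. The part of these cell types in the member differences was not tested.

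Of 12 fibroblast markers, all 12 were above the floor in MEF, with a sum of 57472, against 9289 to 14704 in poised and 10248 to 13223 in CD73- cells. In poised against CD73- cells 2 of the 12 passed (16.7%, against 12.0% of all genes tested). The median log2 difference of the list was -0.11, against -0.01 for all genes tested. *Col3a1* was 2.19-fold and *Postn* 3.87-fold lower in poised than in CD73- cells (limma, adjusted p = 0.0189 and 0.0284). For *Postn* the low arrays were those of CD73+ cells, 253 and 350, while CD49d+ cells read 2042 and 1263 against 2046 and 3496 in CD73- cells. Of 12 stem cell markers, all 12 were above the floor in ESC, with a sum of 33137, against 2430 to 3466 in poised and 2026 to 2780 in CD73- cells, where 3 to 4 were above it. Of the 5 stem cell markers that could be tested, 3 passed (60.0%, against the same 12.0%). *Fgf4* was 3.05-fold and *Sall4* 1.70-fold higher and *Utf1* 2.08-fold lower in poised cells (limma, adjusted p = 0.00476, 0.0258 and 0.0144), and *Nanog* was at the floor in all 4 poised arrays. The part of remaining fibroblasts or of cells further along in the member differences was not tested.

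Genes whose log2 intensity followed *Nt5e* most closely over the 11 arrays were sought among 1337 genes above the floor on all of them with a range of at least 4-fold. These correlations describe 11 arrays that share cultures and populations and are given with no test. The nearest was *Sbspon*, a secreted matrix protein gene (Pearson r = 0.97), followed by the amino acid transporter gene *Slc38a5* (0.94), the transcription factor gene *Msc* (0.94), *Rap1gap2* (0.93), and the forkhead factor genes *Foxo4* (0.93) and *Foxd1* (0.92). *Sbspon* ran from 2195 to 2746 in the poised arrays and was 1559 in SC4, while CD73- cells read 167 and 283, MEF 201 and ESC 105. For the other members r with *Nt5e* was 0.49 for *Enpp3*, -0.27 for *Ada* and -0.58 for *Slc29a1*. The genes named above were picked for the highest r on these same arrays, so a lower r sets no member apart. The typical r over all genes is not given here. The CD73+ and CD73- gates selected on the *Nt5e* product, so they in part fix the pattern that was followed.

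**Figure D4:**
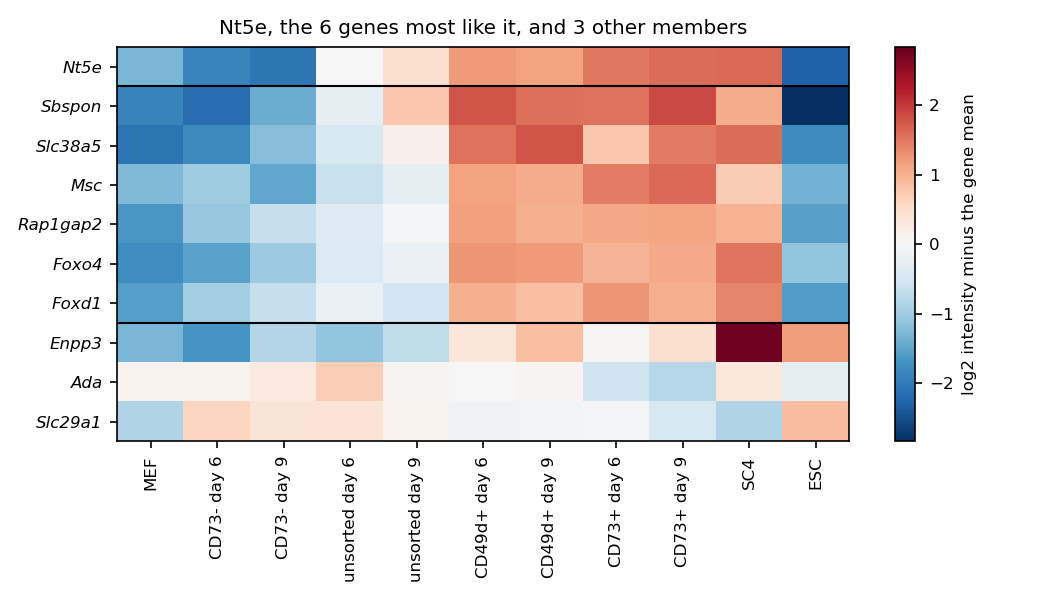
Log2 intensity minus the gene's mean (colour) on the 11 arrays for *Nt5e*, the 6 genes most like it and 3 other members. The upper 7 rows are red in the poised arrays and SC4 and blue in CD73- cells, MEF and ESC. That likeness is in good part fixed, since the 6 genes were picked for following *Nt5e* on these same arrays. *Enpp3*, with r of 0.49, is also red in ESC.

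For *Enpp3*, among 9856 genes above the floor on all 11 arrays, the nearest included *Aim2*, a cytosolic DNA sensor gene (r = 0.97), and *Sox13* (0.96). *Aim2* read 1912 in SC4, 540 in ESC, 435 to 654 in the poised arrays and 195 and 316 in CD73- cells. SC4 lies far from the rest for *Enpp3* and for these genes, so this 1 array weighs heavily in these correlations.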

How the data were processed

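RNA of 11 samples was measured on Affymetrix whole-transcript arrays, 1 array per sample. The deposited values are linear intensities of 41345 probe sets; the submitters' processing notes name Partek, and its version, the summarisation and the scaling are not stated in the sources used here. From 52.14% to 54.31% of probe sets per array sat at the floor of 100, and the median intensity above it was 347 to 388. The number of arrays limits the precision. Gene names came from the platform annotation (23521 probe sets with 1 symbol, 1814 with several, 16010 with none), of which 23328 matched a RefSeq gene table (GRCm38.p6); the probe set of highest mean stands for a gene. Log2 of the deposited intensity was fitted in limma 3.58.1 (R 4.3.3; lmFit, eBayes) on the 8 reprogramming arrays with terms for population and day, leaving 3 residual degrees of freedom. The 13313 genes above the floor on at least 1 of the 8 were tested, with Benjamini-Hochberg adjustment and a threshold of 0.05. Comparisons with MEF used 14301 genes and a 2-fold limit with no test. The script was tested on simulated data.

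All 10 members were to be named; of the lists of other genes, those past the threshold or else up to 4 of largest poised minus CD73- difference; and the 6 genes (3 for *Enpp3*) of highest correlation, leaving out predicted genes, Riken clones and short RNAs. For *Enpp3*, 1 of the 3 is not reported here. The members and lists were chosen with earlier results of these data known. Alternatives were centring, quantile normalization, other filters, mean of probe sets, no day term, sorted arrays alone, and each array left out.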

Additional observations from a re-analysis of the deposited data

Results flagged for a closer look

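*Slc29a2*, the second equilibrative nucleoside transporter gene, was flagged because its day changes had opposite signs in poised and in other cells, though only CD49d+ cells moved clearly. From day 6 to day 9 its log2 intensity went up by 0.34 in CD49d+ and by 0.01 in CD73+ cells, while the change was -0.03 in CD73- and -0.08 in unsorted cells, so that the mean changes differed by 0.23. The difference between these groups was not tested, and the changes in CD73+, CD73- and unsorted cells are all close to 0.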

How the results depend on the processing

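Of 287 values of the members under alternative settings, 245 kept their side of the threshold without turning, 30 no longer passed, 5 newly passed and 7 turned in sign, none of which passed before or after. Day 9 minus day 6 (log2) was -0.0527 for *Nt5e* and 0.0028 for *Ada* with the 6 sorted arrays alone or without either unsorted array; with 1 array left out it ran from -0.0527 to 0.1641 and from -0.2655 to 0.0028. CD49d+ minus CD73+ ran from -0.0116 (without CD49d+ day 9) to 0.3296 for *Slc29a1*. The count of members called in poised against CD73- cells ran from 0 to 3 with 1 array left out, and so did that in CD73+ against CD73- cells, which was 1 without the day term. In day 9 against day 6 it was 1 with arrays centred on their medians. With the mean of a gene's probe sets, 0 members were at least 2-fold from MEF in both CD73- arrays, since the second *Slc29a1* probe set is at the floor. Over all genes, calls in poised against CD73- cells fell from 1599 to 994 with adjustment over all 22180 genes, rose to 1775 without CD49d+ day 9 and fell to 1 without unsorted day 6; in CD73+ against CD73- cells they went from 1065 to 497 with that adjustment and to 1675 with centring, and in CD49d+ against CD73+ cells from 4 to 647 with centring. Leaving out an array leaves 2 residual degrees of freedom, and an unsorted array enters these contrasts through the spread and the day term. The labels number no replicates; the day term of the fit pairs the populations by day.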
